A study of Mus musculus with 2 samples.

Results

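The genes described here are 10 components of the Notch pathway: the receptors Notch1, Notch2 and Notch3, the ligands Dll1 and Jag1, the nuclear partners Rbpj and Maml2, and the transcriptional targets Hes1, Hes5 and Nrarp. They were chosen by name, and all 10 were found among the 20210 genes of the deposited count table. Their UMIs (unique molecular identifiers, 1 per captured mRNA molecule) were followed across cell classes and between 2 single-cell libraries of tdTomato+ cells. The cells were sorted from the hypothalamic region that holds the median eminence and the arcuate nucleus of CD-1 mice at postnatal day 10. The control library, Ctrl, came from Ins2-Cre;tdTomato+/- mice. The other library, Irx3/5dHet, came from mice with the same Cre and reporter that were also heterozygous for both Irx3 and Irx5. Each library was 1 pool of 5 mice per the labels, so no spread between animals could be measured and no test between genotypes was possible. Cre driven by Ins2 decides which cells carry the reporter, so the cells are those with a history of that driver's activity and not all cells of the region.

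Notch receptors are cut when a ligand on a neighbouring cell binds them, and the released intracellular domain enters the nucleus. There it joins the DNA-binding protein Rbpj and a Mastermind co-activator such as Maml2 and turns on Hes genes, repressors that hold back proneural genes, and Nrarp, which feeds back on the receptor's intracellular domain. In the postnatal brain the pathway is known for keeping astroglia and radial glia-like cells in their state, and the tanycytes of the third ventricle are radial glia-like cells with progenitor capacity.

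Hes5 and Nrarp, a pair of pathway targets, had closely similar profiles over clusters (below), and their upstream sequences are shown for that reason. Each run is the 250 bases before the start of transcription, 5′ to 3′ on the plus strand, from RefSeq on GRCm38.p6. The Hes5 window is chr4:154960673-154960922 and the Nrarp window is chr2:25180508-25180757. Capitals mark TGGGAA, the core bound by Rbpj, in Hes5, and CACNAG, the N-box bound by Hes proteins, in Nrarp, each searched on both strands.

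Hes5: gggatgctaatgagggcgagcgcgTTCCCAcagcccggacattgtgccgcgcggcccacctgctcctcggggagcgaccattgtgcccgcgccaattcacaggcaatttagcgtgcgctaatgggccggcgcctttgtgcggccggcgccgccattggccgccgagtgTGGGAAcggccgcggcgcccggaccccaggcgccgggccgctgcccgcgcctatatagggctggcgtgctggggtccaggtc

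Nrarp: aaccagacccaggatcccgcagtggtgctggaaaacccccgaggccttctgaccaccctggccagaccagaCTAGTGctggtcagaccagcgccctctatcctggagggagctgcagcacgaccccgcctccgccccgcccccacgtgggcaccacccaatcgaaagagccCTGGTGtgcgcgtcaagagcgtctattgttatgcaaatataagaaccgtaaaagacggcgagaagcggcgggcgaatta

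TGGGAA stood in Hes5 at 226 bases before the start on the minus strand and at 82 bases before it on the plus strand. Among 32851 RefSeq windows of the same length, 21.6% held TGGGAA and 2.77% held it 2 or more times. The Nrarp window held no TGGGAA and 2 copies of CACNAG, which 8.18% of windows held 2 or more times and 36.7% at least once. Of the 9 members with an entry (12 windows; Hes1 had none), Hes5, Rbpj and Maml2 had TGGGAA. These are matches of letters and not measured sites.

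In GENCODE annotation of GRCm38 the 3 receptor genes lie at chr2:26457903-26516663 (Notch1, minus strand), chr3:98013527-98150361 (Notch2, plus strand) and chr17:32120820-32166852 (Notch3, minus strand). Hes1 spans chr16:30064384-30067796 and Hes5 spans chr4:154960923-154962371, both on the plus strand. Jag1 is at chr2:137081456-137116644 and Dll1 at chr17:15367354-15376872, both on the minus strand. Rbpj at chr5:53466152-53657362, Maml2 at chr9:13297957-13709388 and Nrarp at chr2:25180758-25183339 are on the plus strand. All are protein-coding. Maml2, Notch2 and Notch1 overlap 4, 2 and 1 annotated genes on their own strand, so some of their 3′ reads could belong to a neighbour.

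The count table held 3479 Ctrl cells with 63100794 UMIs and 3939 Irx3/5dHet cells with 71827597 UMIs, and 4 barcodes occurred in both libraries. After doublet removal, Irx3 was at 1.47 CPM (UMIs per 1000000 UMIs) in Ctrl and 0.589 in Irx3/5dHet, and Irx5 at 2.88 and 1.49. Both were lower in the library labelled heterozygous, with ratios of 0.401 (95% counting interval 0.271 to 0.583) and 0.517 (0.403 to 0.661). In tanycyte-like cells the 2 genes had 1 to 6 UMIs per library, too few for a comparison there. Cells were clustered without the Notch genes and named by markers: 593 tanycyte-like cells (318 Ctrl, 275 Irx3/5dHet), 846 astrocyte-like (419, 427), 169 oligodendrocyte precursor-like (92, 77), 71 cycling (37, 34), 102 ependymal-like (63, 39), 69 oligodendrocyte-like (30, 39), 52 of pars tuberalis or pituitary type (38, 14) and 5157 neuron-like (2252, 2905), with 315 unnamed. No cluster met the criteria for a neurogenic precursor, so the precursors described are the oligodendrocyte precursor-like and cycling cells. Levels below are UMIs of a gene over all UMIs of the class, in CPM, and intervals are exact and cover counting error only.

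Each receptor had its own pattern. Notch1 was spread over every glial class. It was at 167 CPM in cycling cells, 157 in astrocyte-like and 134 in oligodendrocyte precursor-like cells with both libraries summed, and the counting intervals of neighbours in that order overlapped. Tanycyte-like cells followed at 98.5 CPM, below the precursors beyond the interval, then ependymal-like cells at 81.2 and oligodendrocyte-like cells at 34.7. Notch2 was highest in tanycyte-like cells, at 132 CPM, above ependymal-like (72.8) and astrocyte-like cells (67.9), which did not differ from each other beyond counting error. In oligodendrocyte precursor-like cells Notch2 gave 1 UMI in each library (1.53 CPM), although Notch1 gave 175 there. Notch3 was nearly an astrocyte gene in these data: 85.3% of its 558 UMIs lay in astrocyte-like cells, at 89.2 CPM, against 11.2 in cycling and 6.18 in tanycyte-like cells, and it had 0 UMIs in oligodendrocyte precursor-like cells, where 3 UMIs would have been 3.98 CPM in Ctrl and 5.42 in Irx3/5dHet.

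Tanycyte-like cells and astrocyte-like cells thus weighted the receptors differently. In tanycyte-like cells there were 0.775 Notch1 UMIs per Notch2 UMI in Ctrl and 0.698 in Irx3/5dHet. In astrocyte-like cells the same ratio was 2.41 and 2.23. Both libraries had more Notch2 than Notch1 UMIs in the first class and the reverse in the second.

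**Figure D1:**
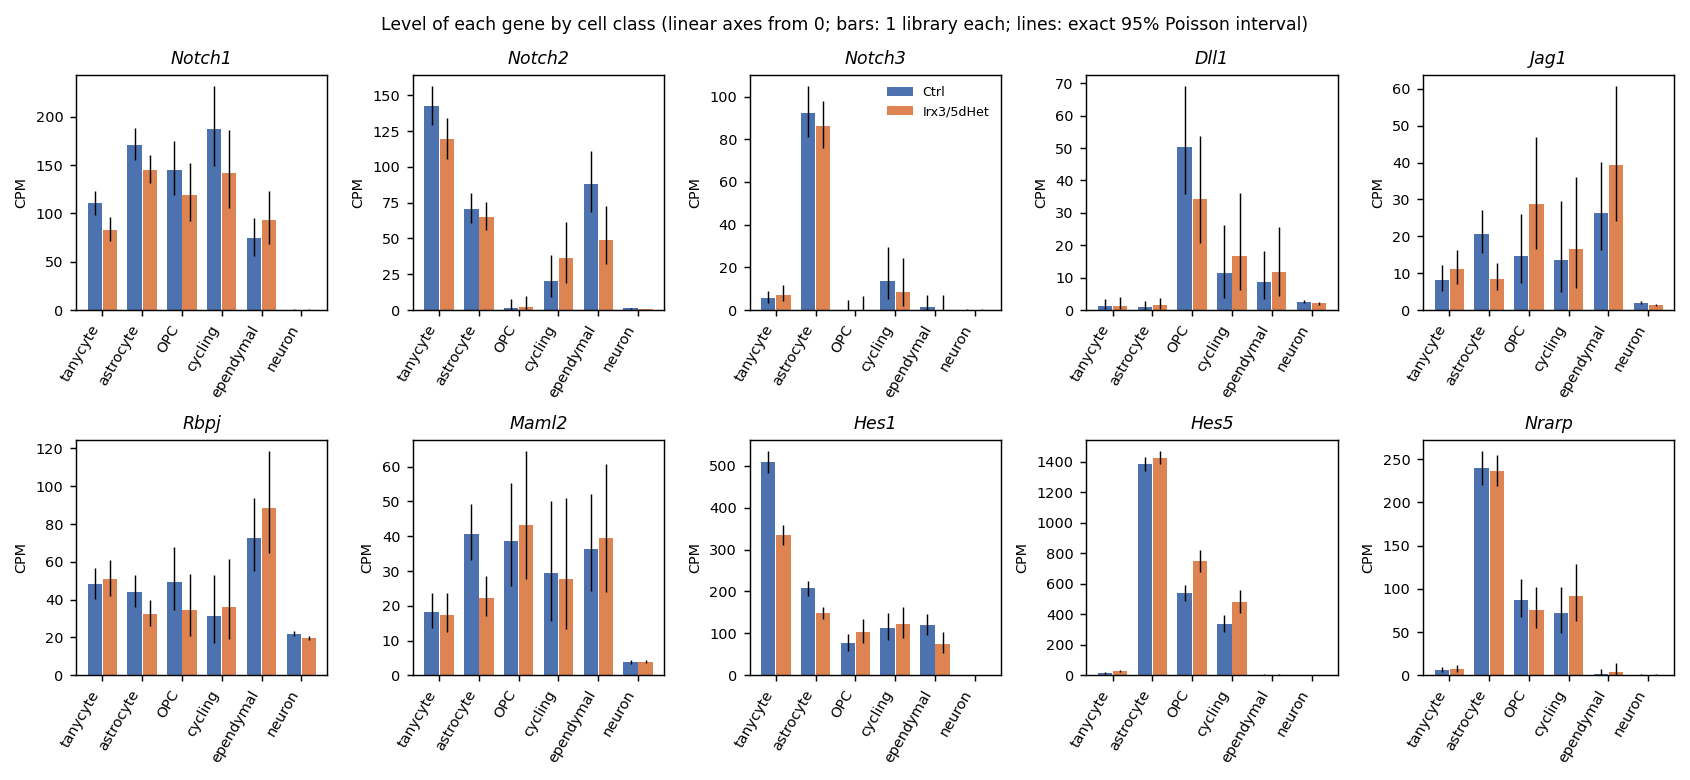
Level of each of the 10 genes in 6 cell classes (x axis; OPC, oligodendrocyte precursor) in CPM (y axis, linear, its own range per gene), 1 bar per library and exact 95% Poisson intervals as lines. Hes1 and Notch2 peak in tanycyte-like cells, Notch3, Hes5 and Nrarp in astrocyte-like cells and Dll1 in oligodendrocyte precursor-like cells, in both libraries.

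Of the ligands, Dll1, a Delta-type activator of Notch, was highest in oligodendrocyte precursor-like cells at 43.6 CPM (38 UMIs in Ctrl, 19 in Irx3/5dHet). Cycling cells followed at 13.7 CPM, below that interval. Tanycyte-like cells held 7 Dll1 UMIs in all and astrocyte-like cells 6, which is 1.35 and 1.13 CPM. Neuron-like cells were at 2.29 CPM, yet with 5157 deeply sequenced cells they held 70.2% of all 379 Dll1 UMIs. Jag1, a Jagged/Serrate-type ligand, was low everywhere: 31.4 CPM in ependymal-like, 20.7 in oligodendrocyte precursor-like, 14.9 in cycling, 14.3 in astrocyte-like and 9.46 in tanycyte-like cells, with overlapping intervals between each pair of neighbours in this order.

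The nuclear partners were the most evenly spread. Rbpj ranged from 20.7 CPM in neuron-like cells to 78.9 in ependymal-like cells, and tanycyte-like cells were at 49.3, oligodendrocyte precursor-like at 42.8 and astrocyte-like cells at 37.9. It was the most abundant member in neurons, and 74.2% of its 3238 UMIs were there. Neuron-like cells held 52945885 of all 62594243 Ctrl UMIs and 63399376 of all 71295165 Irx3/5dHet UMIs, so this share is not a concentration of Rbpj in neurons. Maml2 lay between 3.83 CPM in neuron-like and 42.0 in oligodendrocyte-like cells, with 17.8 in tanycyte-like and 30.9 in astrocyte-like cells.

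The targets split the glia. Hes1 was at 433 CPM in tanycyte-like cells, which held 52.3% of its 4283 UMIs, then 177 in astrocyte-like, 117 in cycling, 102 in ependymal-like and 88.0 in oligodendrocyte precursor-like cells. Tanycyte-like, astrocyte-like and cycling cells each differed from the next beyond counting error, while cycling, ependymal-like and oligodendrocyte precursor-like cells did not. Hes5 ran the other way: 1407 CPM in astrocyte-like, 626 in oligodendrocyte precursor-like, 402 in cycling and 20.1 in tanycyte-like cells, each below the one before it beyond counting error, and 1.53 in ependymal-like cells. Per cell, 71.7% of 318 Ctrl tanycyte-like cells had a Hes1 UMI and 5.35% a Hes5 UMI, while 91.9% of 419 Ctrl astrocyte-like cells had Hes5 and 52.3% had Hes1. Cells with at least 4000 UMIs were also thinned to 4000 each, and the thinned shares are of these cells alone. Hes1 was then found in 61.3% of 266 Ctrl tanycyte-like cells and 47.7% of 308 Ctrl astrocyte-like cells, and Hes5 in 2.26% and 90.6%. In neuron-like cells, with a median depth of 22840.5 UMIs in Ctrl against 9209 for tanycyte-like cells, the thinned shares were 0.184% for Hes1 and 1.47% for Hes5. In Irx3/5dHet the thinned Hes5 share was 5.88% (3.17% to 9.85%) of tanycyte-like cells and 1.16% (0.8% to 1.63%) of neuron-like cells. The Ctrl interval for tanycyte-like cells, 0.832% to 4.84%, overlapped that of Irx3/5dHet. Without thinning, 5.35% of Ctrl and 6.91% of Irx3/5dHet tanycyte-like cells had a Hes5 UMI. Nrarp followed Hes5, at 238 CPM in astrocyte-like, 82.6 in oligodendrocyte precursor-like, 80.8 in cycling and 6.57 in tanycyte-like cells.

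Neuron-like cells were at the bottom or near it for most members. Their Hes1 level was 0.169% of that in tanycyte-like cells, and their Hes5 level was 0.220% of that in astrocyte-like cells. Notch1 (0.253% of its highest class), Notch3 (0.183%), Nrarp (0.336%) and Notch2 (0.617%) were also under 1% of the top. As a gauge of free RNA, the 17 astrocyte markers in the table had a median neuronal level of 0.106% of their astrocyte-like level, with a range of 0.0609% to 11%. The same gauge gave a median of 1.46% (0.0643% to 55.5%) for 17 tanycyte markers and 0.0436% (0.0243% to 8.01%) for 11 oligodendrocyte precursor markers. Neuronal values of these 6 members lie inside the ranges, which are too wide to tell free RNA from low expression. Notch3, Hes5 and Nrarp were above the astrocyte marker median, and Hes1 and Notch2 below the tanycyte marker median. The source of these UMIs was not tested, and they are not read as expression. Dll1 (5.24%), Jag1 (5.25%), Maml2 (9.10%) and Rbpj (26.2%) stood higher, though each was also under the highest tanycyte marker. Over 18 neuron clusters Rbpj ranged from 13.4 to 32.0 CPM with a median of 21.2. Maml2 had a median of 3.70 CPM and reached 11.9 in the cluster led by Ghrh and Gal, where it was at 9.33 in Ctrl and 13.7 in Irx3/5dHet. Jag1 had a median of 1.2 and a highest value of 4.50, in a cluster led by Tmem114 and Tbx19, from 33 UMIs in Ctrl and 13 in Irx3/5dHet.

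Across the 28 clusters with at least 20 cells in each library, Hes5 and Nrarp had a Pearson correlation of 0.94 on the log2(CPM + 5) scale, Notch2 and Hes1 of 0.93, Notch1 and Hes1 of 0.89, and Hes1 and Hes5 of 0.59. Dll1 stood apart, at -0.03 with Notch2 and 0.46 with Notch1. These points share 2 libraries, and most are neuron clusters near the floor, so the values describe the split between glia and neurons as much as differences among glia. By the same measure, the genes most like Notch3 were Slc7a10 (0.93), Cd38 (0.92) and Aldh1l1 (0.91), the first a transporter and the last a widely used astrocyte marker. Nearest to Hes1 were Gpx8 (0.97), Mdk (0.96) and the glutamate transporter gene Slc1a3 (0.96). Nearest to both Hes5 (0.94, 0.94) and Nrarp (0.97, 0.96) were Dab2 and Fam212b. Those nearest to Dll1 were led by Fip1l1 (0.87) and included C1ql1 (0.81) and Pdgfra (0.80), the receptor that marks oligodendrocyte precursors. Nearest to Notch2 were Ptpn13 (0.98), Serhl (0.98), Slco1c1 (0.98), Mlc1 (0.98) and Yap1 (0.98), and nearest to Notch1 were Tnfrsf1a (0.98), Dock1 (0.98) and Slc12a4 (0.98). The lists of Jag1, Rbpj and Maml2 were led by Tdrd7 (0.92), Zfp664 (0.91) and Rock1 (0.95).

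**Figure D2:**
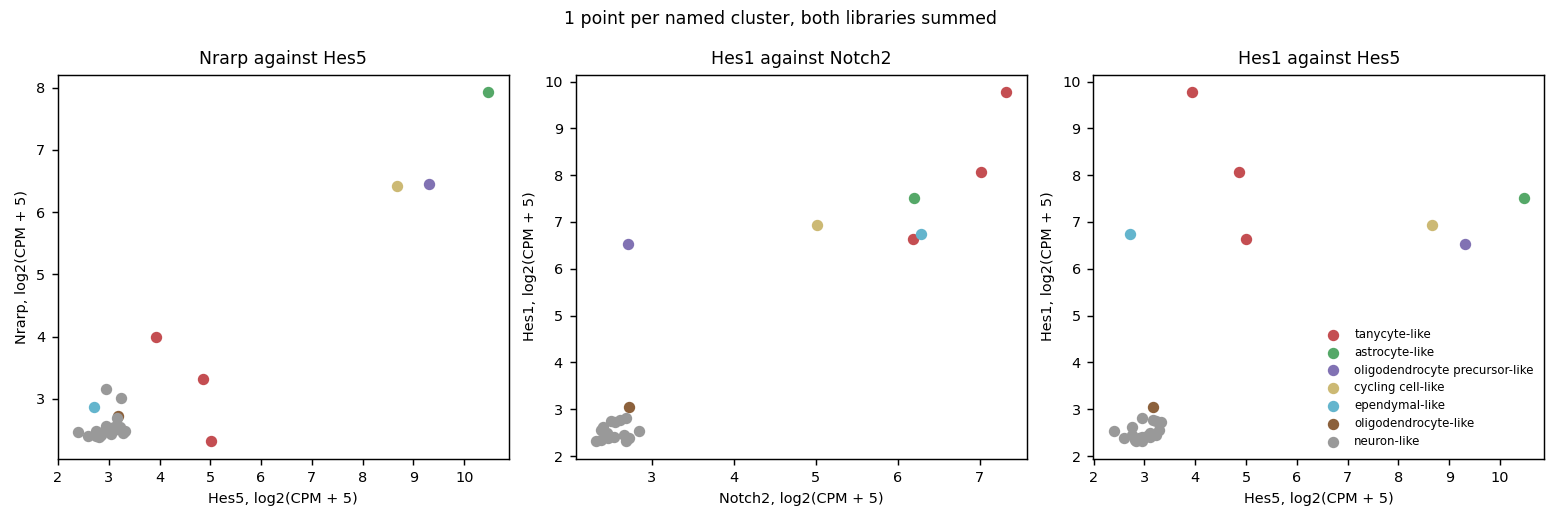
Levels of 3 gene pairs on the log2(CPM + 5) scale, 1 point for each of 26 named clusters, coloured by class. Nrarp and Hes5 are high together in the astrocyte-like, oligodendrocyte precursor-like and cycling clusters, whereas the tanycyte-like clusters have high Hes1 and little Hes5.

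The comparison of Irx3/5dHet with Ctrl asks whether these levels differ when 1 copy of both Irx genes is lost. It was made in the 4 classes with at least 50 cells in each library, on members with at least 50 UMIs over both. A member is called past the fold when its log2 ratio, with 5 CPM added to each side, reaches 1.5-fold.

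In tanycyte-like cells Hes1 was at 508 CPM (1489 UMIs) in Ctrl and 334 (752 UMIs) in Irx3/5dHet, a ratio of 0.658 (0.602 to 0.719) and a log2 ratio of -0.60. Hes5 was at 13.7 CPM (40 UMIs) and 28.5 (64 UMIs), a ratio of 2.08 (1.38 to 3.18) and a log2 ratio of 0.84. These were the 2 of 6 counted members past the fold, 1 in each direction. Among 9515 genes with as many UMIs, 2.03% were lower and 2.52% higher by that fold. Neither was past the fold under every other setting. With only cells inside the interquartile range of UMIs the log2 ratio was -0.11 for Hes1 and 0.19 for Hes5. Thinning cells to 4000 UMIs, with shallower cells left out, gave -0.38 for Hes1, and weighting clusters equally gave 0.18 for Hes5. Notch1 was lower without reaching it, at 110 CPM in Ctrl and 83.2 in Irx3/5dHet (ratio 0.754, 0.626 to 0.906), and so was Notch2, at 142 and 119 (0.837, 0.715 to 0.978). Rbpj (48.1 and 50.7 CPM) and Maml2 (18.1 and 17.3) had intervals that took in 1. The median log2 ratio of the 6 was -0.15, against -0.01 for all genes. Notch3, Dll1, Jag1 and Nrarp had fewer than 50 UMIs, and their intervals all took in 1.

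The lower Hes1 level went with a lower level of immediate early and dissociation response genes. In tanycyte-like cells 19 of the 25 such genes with at least 50 UMIs had log2 ratios below 0, with a median of -0.69, and the summed level of the list was 8019 CPM in Ctrl and 4162 in Irx3/5dHet. The class is made mainly of 2 clusters. Cluster 5, led by Crym, S100a6 and Prss56, had 215 Ctrl and 198 Irx3/5dHet cells, and the list summed to 3347 and 1777 CPM. Cluster 21, led by Scn7a and Cldn10, had 76 and 47 cells, with 17402.3 and 12768.3 CPM. Hes1 was at 284 and 239 CPM in cluster 5 (ratio 0.840, 0.737 to 0.957) and at 961 and 694 in cluster 21 (0.721, 0.635 to 0.818), so its level differed more between these clusters than between libraries. The class ratio of 0.658 lay below both, and neither cluster reached 1.5-fold. Cluster 21, where Hes1 was higher, was 76 of 318 Ctrl and 47 of 275 Irx3/5dHet tanycyte-like cells. The part of this mix in the class ratio was not tested.

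Cells were then divided at the median share of immediate early UMIs, a split chosen after seeing the data. At or below that median, Hes1 was at 204 CPM in 133 Ctrl cells and 234 in 164 Irx3/5dHet cells, with list sums of 1193.3 and 1124.8 CPM and a ratio of 1.14 (0.957 to 1.37). Above it, Hes1 was at 688 and 460 CPM (0.669, 0.6 to 0.745) in 185 and 111 cells, where the list sums still differed, at 12042.1 and 7957.6 CPM. Within cluster 5 alone the 2 ratios were 1.16 (0.942 to 1.44) and 0.723 (0.607 to 0.859). Among tanycyte-like cells at or below the class median the list sums were close in the 2 libraries, and Hes1 was not lower in Irx3/5dHet. The split took 133 of 318 Ctrl and 164 of 275 Irx3/5dHet cells, so it also changed which cells were compared. The part of the immediate early response in the Hes1 ratio was not tested. Within cluster 21 the ratios were 0.841 (0.689 to 1.02) and 0.777 (0.653 to 0.920), with list sums of 9682.4 and 7120.0 CPM at or below its median and 22393.8 and 21620.3 above it. In that last set, where the list sums were close, Hes1 was still lower, at 890 CPM in 15 Irx3/5dHet cells against 1146.2 in 46 Ctrl cells. Notch1 was 0.800 (0.607 to 1.05) at or below the class median and 0.729 (0.558 to 0.944) above it.

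**Figure D3:**
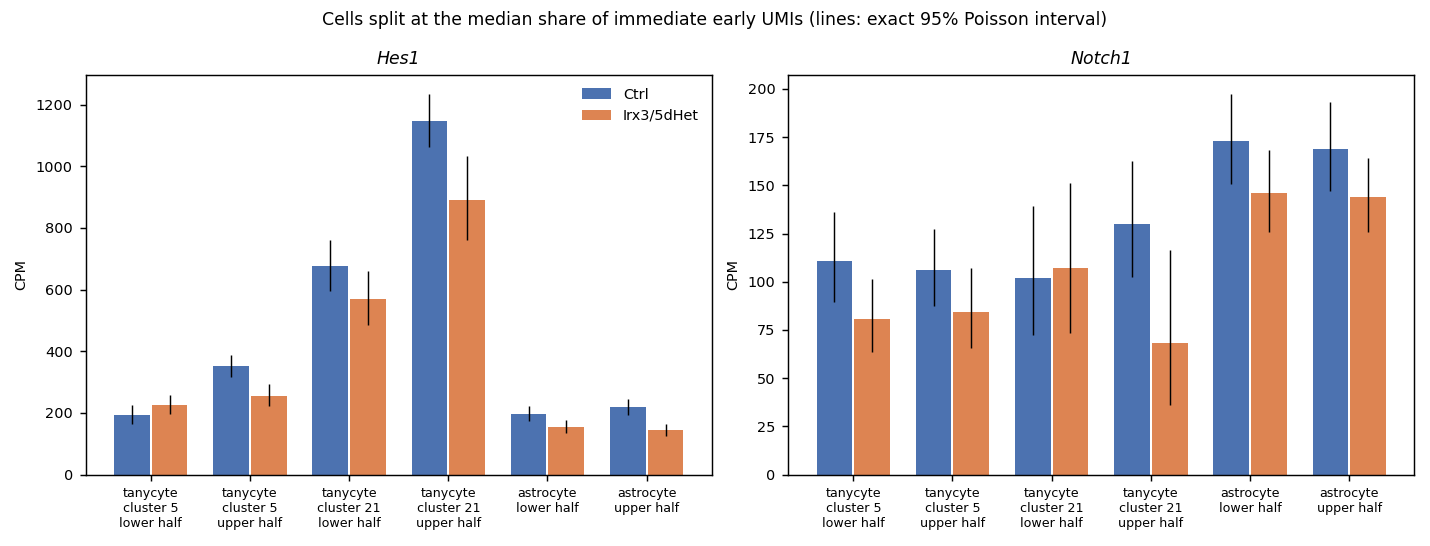
Hes1 and Notch1 levels in CPM (y axis) in each library, with cells of tanycyte-like clusters 5 and 21 and of the astrocyte-like class divided at their own median share of immediate early UMIs (x axis), and exact 95% Poisson intervals. Hes1 is higher in the cells above the median in both tanycyte-like clusters, and in cluster 5 the cells at or below the median had no lower Hes1 in Irx3/5dHet (225 CPM) than in Ctrl (193 CPM).

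Most Hes5 UMIs of tanycyte-like cells lay in few cells of either library. The 5 cells with most Hes5 held 27 of 40 UMIs in Ctrl and 43 of 64 in Irx3/5dHet, up to 12 and 16 UMIs in 1 cell. The other cells had 13 UMIs in 313 Ctrl cells (4.55 CPM) and 21 in 270 Irx3/5dHet cells (9.69 CPM). Their log2 ratio was 0.62, but they hold fewer than the 50 UMIs asked of a counted member, so it is not called past the fold. Astrocyte marker UMIs summed to 7639 CPM in the 5 Ctrl cells and 4518 in the 5 Irx3/5dHet cells, against 3624 and 3396 in the remaining tanycyte-like cells and 20295.9 and 19334.1 in astrocyte-like cells. In cluster 5 Hes5 was at 12.5 and 36.6 CPM (ratio 2.92, 1.80 to 4.89), whereas in cluster 21 it had 15 UMIs in Ctrl and 0 in Irx3/5dHet. These values lay in opposite directions in the 2 clusters but rest on few cells. The 5 Irx3/5dHet cells with most Hes5 were all in cluster 5 and held 43 of its 63 UMIs. Of the 5 Ctrl cells, 4 were in cluster 5 and 1 in cluster 21. The counting intervals take UMIs of 1 cell as independent, so no direction per cluster is concluded.

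Among 54 other pathway genes in the table, 40 had 50 UMIs in tanycyte-like cells. Hey1, Maml3 and Fbxw7 were among those with the larger ratios and were not themselves past the fold: Hey1, another target (21.9 and 13.8 CPM, log2 ratio -0.52), the co-activator gene Maml3 (7.85 and 12.9 CPM, 0.48) and Fbxw7, a ubiquitin ligase subunit that turns over the Notch intracellular domain (17.4 and 26.2 CPM, 0.48). The list as a whole had 20 genes below 0 and 20 above, with a median of 0.00. Summed neuron markers in tanycyte-like cells were at 2277 CPM in Ctrl and 2460 in Irx3/5dHet, with a median log2 ratio of 0.83 over the 7 markers with at least 50 UMIs, 1 of which was below 0. Their part in the ratios of this class was not tested.

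In astrocyte-like cells the pattern was another one: 8 of 9 counted members had log2 ratios below 0, with a median of -0.23 against -0.02 for all genes, of which 52.7% were below 0. Jag1 was at 20.7 CPM (52 UMIs) in Ctrl and 8.50 (24 UMIs) in Irx3/5dHet, a ratio of 0.410 (0.242 to 0.678) and a log2 ratio of -0.93. Maml2 was at 40.6 and 22.3 CPM (102 and 63 UMIs; ratio 0.549, 0.395 to 0.759; log2 ratio -0.74). These 2 were past the fold, both lower, where 2.22% of 9412 genes were lower and 1.75% higher. Each was past the fold under 13 of 15 other settings, Jag1 not with cells thinned to 4000 UMIs (-0.53) or with 20 CPM added (-0.51) and Maml2 not with thinning (-0.33) or with 20 CPM added (-0.52). Hes1 was at 207 CPM in Ctrl and 149 in Irx3/5dHet (0.719, 0.630 to 0.819), Rbpj at 44.2 and 32.2 (0.729, 0.546 to 0.971) and Notch1 at 171 and 145 (0.850, 0.740 to 0.975). The other targets did not share this: Hes5 was at 1386 and 1425 CPM (ratio 1.03, 0.982 to 1.08) and Nrarp at 239 and 236 (0.987, 0.883 to 1.10), close to equal at high counts. Notch2 (70.9 and 65.2 CPM) and Notch3 (92.4 and 86.4 CPM) had intervals that took in 1.

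Immediate early levels of astrocyte-like cells were close in the 2 libraries, at 799 and 771 CPM. Hes1 was lower in Irx3/5dHet on both sides of their median share, with ratios of 0.789 (0.652 to 0.955) at or below it and 0.659 (0.550 to 0.790) above it. Neuron markers summed to 497 CPM in Ctrl astrocyte-like cells and 702 in Irx3/5dHet ones, all 15 of them detected, with a median log2 ratio of 0.49 over the 10 counted. Their part in these ratios was not tested. Of the other pathway genes, 40 were counted: Cntn1, a neural adhesion protein reported as a Notch ligand, was higher past the fold (11.2 and 24.8 CPM, log2 ratio 0.88), and Aph1c, a gamma-secretase subunit gene, was lower past it (21.9 and 11.7 CPM, -0.69). Fbxw7 was at 33.1 and 21.3 CPM (-0.54). In all 28 of the 40 were below 0, with a median of -0.11.

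In oligodendrocyte precursor-like cells none of 7 counted members was past the fold, where 3.50% of 5226 genes were lower and 3.50% higher. Hes5, the member with the most UMIs there, was at 536 CPM (404 UMIs) in Ctrl and 748 (414 UMIs) in Irx3/5dHet, a ratio of 1.39 (1.21 to 1.60) and a log2 ratio of 0.48. The small cycling class, not counted among the comparisons, was alike in this, with Hes5 at 338 and 479 CPM (1.42, 1.13 to 1.78). Oligodendrocyte precursor markers summed to 5624 and 5486 CPM in cycling cells, against 10367.0 and 9763 in the precursor class, so the 2 classes are not separate evidence. Pars tuberalis or pituitary markers of cycling cells summed to 67.65 CPM in Ctrl and 811.8 in Irx3/5dHet, so their make-up also differed between libraries. Hes1 was at 77.0 and 103 CPM (1.34, 0.911 to 1.96), Dll1 at 50.4 and 34.3 (0.680, 0.371 to 1.21), Rbpj at 49.1 and 34.3 (0.699) and Notch1 at 145 and 119 (0.824, 0.598 to 1.13). All 4 intervals took in 1, as did those of Maml2 and Nrarp. The summed immediate early level was 2194 CPM in Ctrl and 1369 in Irx3/5dHet. Among cells at or below the class's median share of these UMIs, the log2 ratio of Hes5 was 0.16 in place of 0.48 and that of Rbpj 0.09 in place of -0.46, while Dll1 (-0.48 and -0.50) and Hes1 (0.41 and 0.40) were nearly the same in these cells as in the whole class. Of 23 other pathway genes counted, Dtx1, a Deltex ubiquitin ligase gene, was lower past the fold (47.8 and 27.1 CPM, log2 ratio -0.72, ratio interval 0.288 to 1.06). Poglut1 (43.8 and 66.8 CPM, 0.56), Ctbp1 (194 and 136 CPM, -0.50) and Aph1b (51.8 and 36.1 CPM, -0.46) were next.

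**Figure D4:**
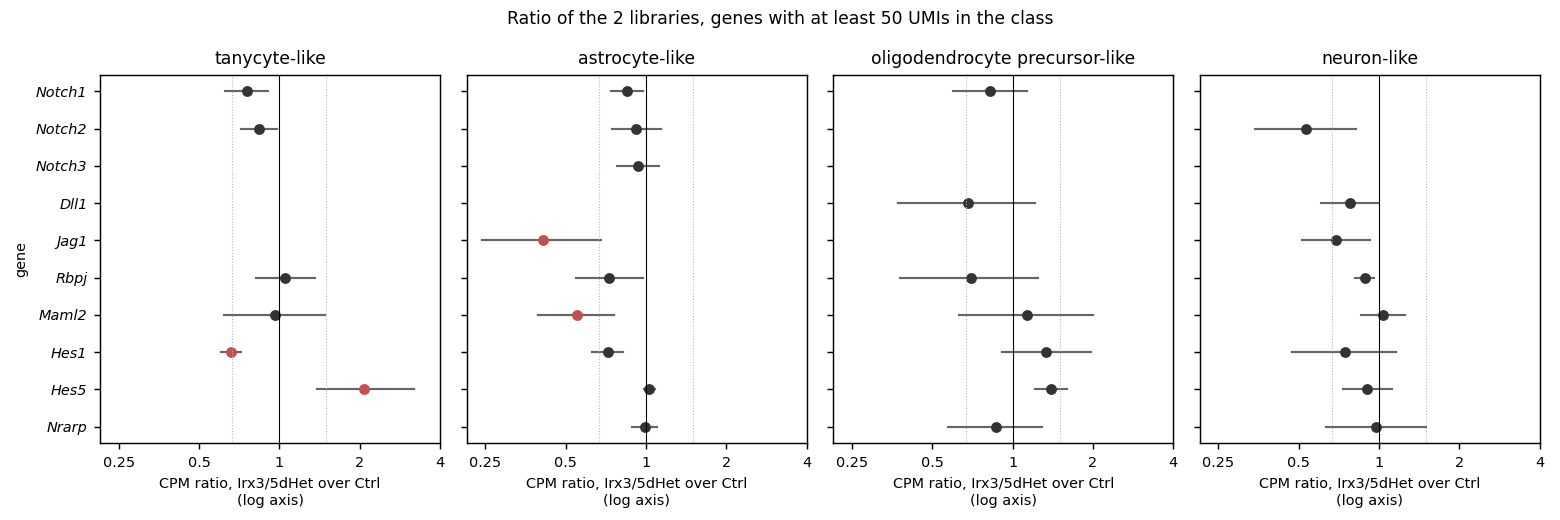
Ratio of CPM in Irx3/5dHet over Ctrl (x axis, log scale) for members with at least 50 UMIs (y axis) in 4 classes, with exact 95% counting intervals, dotted lines at 1.5-fold each way and red points for members past the fold with 5 CPM added. Most members of the astrocyte-like class lie below 1, and Hes5 is above 1 in tanycyte-like and oligodendrocyte precursor-like cells.

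In neuron-like cells, at 52945885 UMIs in Ctrl and 63399376 in Irx3/5dHet, none of 8 counted members was past the fold, and 0.179% of 14495 genes were lower and 0.103% higher. With 5 CPM added, differences of members this low are compressed, so plain ratios are given too. Notch2, Jag1, Hes1 and Nrarp, at 1.98 CPM or less in Ctrl, could not be called lower even without a UMI in Irx3/5dHet. The same holds for any other gene as low, so the counts do not show that such genes were not lower. Rbpj was at 22.1 and 19.5 CPM (0.884, 0.815 to 0.958), Dll1 at 2.61 and 2.02 (0.775, 0.604 to 0.992), Jag1 at 1.98 and 1.37 (0.692, 0.515 to 0.928) and Maml2 at 3.76 and 3.88 (1.03, an interval that took in 1). Notch2 was at 1.10 and 0.584 CPM (58 and 37 UMIs, ratio 0.533, 0.343 to 0.818). This level is within the marker ranges given above, which do not tell free RNA from low expression. Of 51 other pathway genes counted, none was past the fold. The largest log2 ratios were those of Numb, which restrains Notch by receptor endocytosis (8.86 and 5.68 CPM, -0.38), Furin, a protease that processes the receptors (12.3 and 8.58 CPM, -0.35), Maml3 (16.5 and 21.1 CPM, 0.28) and Adam17, a sheddase (4.84 and 3.45 CPM, -0.22).

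Ependymal-like cells, with 63 Ctrl and 39 Irx3/5dHet cells, were too few for the comparison and are given as values. Notch2 was at 87.8 and 49.3 CPM (70 and 25 UMIs), Hes1 at 119 and 74.9 (95 and 38 UMIs), Notch1 at 74.0 and 92.6 (59 and 47 UMIs), Rbpj at 72.7 and 88.7 (58 and 45 UMIs) and Jag1 at 26.3 and 39.4 (21 and 20 UMIs). Hes1 and Notch2 were the lower ones there, and the immediate early list summed to 2423 CPM in Ctrl and 1503 in Irx3/5dHet. In the 52 cells of pars tuberalis or pituitary type, all 3 receptors had 0 UMIs, while Rbpj was at 44.8 CPM.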

How the data were processed

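Per the submitters' processing notes, the authors used Cell Ranger with genome build mm10, and the file headers give version 3.0.2. The annotation behind the counts is not stated in any label or header. The deposited values are raw UMI counts per gene and barcode, in 2 matrices and 1 merged table. The merged table was analysed. It holds 3479 of 3694 Ctrl and 3939 of 4278 Irx3/5dHet barcodes and 20210 of 31053 genes, and its entries for the 10 genes equal those of the matrices.

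Scrublet (scanpy 1.11.5, expected rate 4%) removed 23 Ctrl (0.661%) and 21 Irx3/5dHet barcodes (0.533%). Counts scaled to 10000 per cell were clustered with Leiden at resolution 1, on 2000 variable genes without mitochondrial, ribosomal protein, haemoglobin, sex-linked or Notch pathway genes, Irx3 or Irx5, 30 components and 15 neighbours. For a class name, 25% or more of a cluster's cells had to hold each of 3 or more markers, with that class having the most markers among the 10 leading genes. For neurons and neurogenic precursors, the leading genes were taken against the clusters already named as another class. Neuron type genes such as Agrp, Pomc and Sst then counted as neuron markers among the leading genes. A cluster under 1/3 of the median depth stayed unnamed if it would have been neuron-like or if none of its class's markers led. The method for intervals was exact Poisson for UMIs and exact conditional binomial for ratios, at 95%, for counting error only. PCR duplicates were removed by the UMIs. Named genes were all 10 members, up to 4 other pathway genes per class with the largest log2 ratio at 50 UMIs, and the nearest genes by correlation among those with at least 500 UMIs. The 10 members, gene lists and rules were chosen with earlier results of these data known. Ratios, counts and thinning were tested on simulated data. The result for 1 gene of the wider pathway list is not reported here.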

Additional observations from a re-analysis of the deposited data

Results flagged for a closer look

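Some members had ratios on opposite sides of 1 in 2 classes, with counting intervals that did not overlap. The difference between classes was not tested, since there was 1 library per genotype. Hes1 was lower in Irx3/5dHet tanycyte-like cells (ratio 0.658) and astrocyte-like cells (0.719) and higher in oligodendrocyte precursor-like cells (1.34, an interval that took in 1), and the log2 ratios differed by -1 and -0.86. Hes5 was higher in Irx3/5dHet tanycyte-like cells (2.08) and oligodendrocyte precursor-like cells (1.39) and was at 0.903 in neuron-like cells, where its interval took in 1, for differences of 0.90 and 0.54. The neuronal Hes5 level, 3.09 CPM, is among those not read as expression above, and the 5 CPM added compresses its log2 ratio. Maml2 was at 0.549 in astrocyte-like cells and 1.03 in neuron-like cells, where its interval also took in 1, a difference of -0.76.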

How the results depend on the processing

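Each of 30 member log2 ratios was recomputed under 15 other settings, 2 of them chosen after seeing the data (leaving out shallow clusters, and keeping cells at or below the class's median share of immediate early UMIs), and 14 kept their sign in all 15. In tanycyte-like cells Hes1 was past the fold under 8 of 15 (-0.77 to 0.19); it changed sign, to 0.19, among cells at or below the median immediate early share. The count of members lower past the fold in that class, 1, became 0 with clusters weighted equally, cells thinned to 4000 UMIs, only cells inside the interquartile range of UMIs, 20 CPM added, cells at or below the median immediate early share, cells of the 2 matrices, Leiden resolution 0.5 and a fold of 2, and 2 at the lower of the other 2 fold thresholds. Hes5 was past it under 12 of 15 (0.18 to 1.57). Among these was the setting without the 5 highest cells of each library, which left fewer than 50 UMIs. The count of members higher, 1, became 0 with clusters weighted equally, the interquartile range and 20 CPM added. It also became 0 with a minimum of 200 UMIs or a fold of 2. In astrocyte-like cells the 2 lower members became 0 with thinning, 20 CPM added, a minimum of 200 UMIs and a fold of 2, and 4 at the lower fold. Jag1 ranged from -1.19 to -0.51 and Maml2 from -0.98 to -0.33. In oligodendrocyte precursor-like cells 1 member was lower past the fold with cells weighted equally, thinning, the 5 highest cells left out, or cells classed by marker share, and 2 at the lower fold. There, 2 were higher with thinning, the interquartile range and the lower fold, and 1 with a minimum of 20 UMIs. For the other pathway genes, the lower fold gave 2 lower and 4 higher in tanycyte-like, 8 and 3 in astrocyte-like and 5 and 1 in oligodendrocyte precursor-like cells, and 2 lower in neuron-like cells. A fold of 2 gave 0 in each direction in astrocyte-like cells and 0 lower in oligodendrocyte precursor-like cells. Causes of these moves were not tested. Thinning also left out cells with fewer than 4000 UMIs. Numbers of cells per class stayed within 1.5 times under the 4 other choices of cells or resolution. Depth limits the members under 50 UMIs (4 in tanycyte-like cells). No paired analysis was possible because each genotype had 1 library, which also left no replicate to leave out.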

Other observations

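Cells with a UMI of both Hes1 and Hes5 made up different shares of the glial classes. How often each gene was detected by itself enters these numbers, and sharing beyond that was not tested. In Ctrl astrocyte-like cells 212 of 419 had a UMI of both genes, 173 of Hes5 alone and 7 of Hes1 alone, and in Irx3/5dHet the numbers were 206, 179 and 12 of 427. In tanycyte-like cells 15 of 318 Ctrl and 15 of 275 Irx3/5dHet cells had both, against 213 and 162 with Hes1 alone and 2 and 4 with Hes5 alone. Oligodendrocyte precursor-like cells were between them, with both genes in 30 of 92 and 26 of 77 cells. Shares of cells with a UMI depend on depth, which was higher in the Ctrl tanycyte-like cells (median 9209 UMIs) than in the Irx3/5dHet ones (7409).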
